A study of Mus musculus with 15 samples.

Results

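Growth arrest genes were examined in the mouse uterus, a tissue that proliferates after estrogen. The 9 genes were *Cdkn1a*, *Gadd45a*, *Gadd45b*, *Gadd45g*, *Btg1*, *Btg2*, *Mdm2*, *Ccng1*, and *Ccng2*, chosen by name from 27962 gene names on the array, and they had 15 of its 41174 probes. A probe belonged to a gene when the array annotation gave it that gene's symbol. Uterine RNA from adult (at least 10 weeks old), ovariectomized female mice was hybridized to 15 single-color arrays, with 3 arrays in each of 5 groups. Mice rested for 10 to 14 days after surgery and received an intraperitoneal injection of 100 μL saline, or of 250 ng estradiol (E2) or estriol (E3) in the same volume. Tissue was taken 24 hr after saline, and 2 hr or 24 hr after E2 or E3.

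Several features of the design limit these groups as models. No saline group at 2 hr was analysed here. All 4 estrogen groups were compared with the saline group taken at 24 hr, and the time since injection cannot be told apart from the treatment at 2 hr. The E2 2-hr mice had wild-type *Esr1* on a C57bl6/Jx129 background, whereas all other mice were C57bl6/J. The 3 E2 2-hr arrays were also read on another scanner and on another day than the other 12 arrays, and they sat on slides of their own. Strain, scanner, and day therefore cannot be told apart from treatment in any comparison with E2 at 2 hr. The E2 24-hr arrays and the E3 24-hr arrays also sat on slides that held no other group, so slide cannot be told apart from treatment at 24 hr either, and saline and E3 2-hr were the only groups that shared a slide. The labels describe extraction from each uterus, the methods describe pooled tissue, and each array was counted as 1 sample, so that p-values measure the spread between arrays.

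Growth arrest genes encode proteins that stop cells from cycling or slow their passage through the cell cycle, and genes that regulate or accompany them were included. *Cdkn1a* encodes p21, an inhibitor of cyclin-dependent kinases and a classic target of the p53 tumor suppressor. The Gadd45 proteins are small stress-induced proteins that bind p21 and the kinase Map3k4, Btg1 and Btg2 are antiproliferative proteins that recruit the deadenylase complex to mRNA, and Mdm2 is the ubiquitin ligase that degrades p53. Cyclin G1 is a p53 target that acts with Mdm2, and cyclin G2 is an atypical cyclin associated with quiescent cells and induced by FoxO factors. In the ovariectomized uterus, E2 induces a wave of early transcripts within hours and epithelial DNA synthesis and mitosis about a day later.

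The sequences just before the transcription start are shown for a few genes. All 9 genes were found in the RefSeq promoter table (build GRCm38.p6), with 10 start sites in all, because *Cdkn1a* had 2. Each sequence is the 250 bases before the start, 5′ to 3′ on the gene's strand, and capitals mark matches to 6 motifs searched on both strands: the GC box (GGGCGG), the cAMP response element (TGACGTCA), the AP-1 site (TGACTCA), the estrogen response element (GGTCA and TGACC with 3 bases between them), the CArG box, and the p53 response element (adjacent decamers with at most 1 base off outside their cores). The first *Cdkn1a* start site (chr17:29090729-29090978, plus strand) is shown for its p53 element, and the second (chr17:29093519-29093768, plus strand) for its GC boxes.
Cdkn1a, first start site: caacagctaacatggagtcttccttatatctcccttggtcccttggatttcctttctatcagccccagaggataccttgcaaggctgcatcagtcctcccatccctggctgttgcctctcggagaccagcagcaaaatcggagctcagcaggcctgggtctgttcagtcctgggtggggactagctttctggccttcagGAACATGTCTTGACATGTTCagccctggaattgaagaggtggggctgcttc
Cdkn1a, second start site: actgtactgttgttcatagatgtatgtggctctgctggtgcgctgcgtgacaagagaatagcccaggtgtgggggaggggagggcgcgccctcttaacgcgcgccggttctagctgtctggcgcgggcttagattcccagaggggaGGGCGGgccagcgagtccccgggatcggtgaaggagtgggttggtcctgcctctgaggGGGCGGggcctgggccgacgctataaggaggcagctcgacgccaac
The p53 element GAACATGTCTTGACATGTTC lies at −51 to −32 from the first start, and 0.0457% of the 32851 promoter windows in the table held such an element. The promoters of *Gadd45g* (chr13:51846425-51846674, plus strand) and *Btg2* (chr1:134079156-134079405, minus strand) are shown as examples, the first without any motif match and the second with the most matches, among genes that rose after both estrogens, and that of *Ccng2* (chr5:93267323-93267572, plus strand) because this gene fell.
Gadd45g: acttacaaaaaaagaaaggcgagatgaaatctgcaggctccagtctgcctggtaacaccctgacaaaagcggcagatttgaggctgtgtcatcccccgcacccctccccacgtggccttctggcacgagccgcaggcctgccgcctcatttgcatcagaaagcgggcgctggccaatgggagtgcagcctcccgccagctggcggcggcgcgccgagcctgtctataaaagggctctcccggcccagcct
Btg2: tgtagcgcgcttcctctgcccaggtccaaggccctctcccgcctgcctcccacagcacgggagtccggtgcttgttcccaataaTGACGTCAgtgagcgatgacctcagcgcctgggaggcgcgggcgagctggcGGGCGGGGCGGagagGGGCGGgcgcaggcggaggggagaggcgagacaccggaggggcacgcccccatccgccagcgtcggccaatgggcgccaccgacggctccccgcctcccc
Ccng2: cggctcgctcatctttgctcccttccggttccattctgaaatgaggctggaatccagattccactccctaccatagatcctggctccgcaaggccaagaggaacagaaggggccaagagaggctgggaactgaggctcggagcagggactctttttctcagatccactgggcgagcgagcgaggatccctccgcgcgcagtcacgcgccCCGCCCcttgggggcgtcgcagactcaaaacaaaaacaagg
*Btg2* held the only cAMP response element among the 10 windows, a motif present in 1.55% of all windows, and 3 GC boxes, of which the first and the second share a base. GC boxes were found at 7 of the 10 start sites, and in 32.7% of all windows. The windows of *Gadd45g* and *Ccng1* held none of the 6 motifs. No member window held an AP-1 site (4.46% of all windows), an estrogen response element (0.0639%), or a CArG box (1.47%). A match describes letters in the window and is not a measured binding site.

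Levels are given on a log2 scale as the processed probe intensity relative to the 75th percentile of its own array, so that 0 is the intensity of a fairly bright probe. For genes with more than 1 probe, the brightest probe stands for the gene. A change was called when limma's p-value was below 0.001 and the change was at least 2-fold, and "rose" or "fell" is used of called changes. Adjusted p is the Benjamini-Hochberg value over all 34760 tested probes (34751 where E2 at 2 hr enters). All 15 member probes were well above background on all 15 arrays, and none was saturated. The 75th percentile ranged from 2990 to 4410 intensity units over the arrays, and 77.7% to 81.6% of probes were well above background. Of 11 uterine markers, 11 were well above background on every array of each group, except that *Hoxa10* had no value on 1 E2 24-hr array. Levels of marker genes of other organs varied between arrays. The mean level of 13 liver markers was −2.39 to −0.50 in saline and −8.12 to −7.93 in E2 2-hr arrays. It was −4.26 to −3.03 in E3 2-hr arrays and −5.95 to −5.15 in the E2 and E3 24-hr arrays. The mean of 9 exocrine pancreas markers reached −0.90 and 4.31 on 2 E3 2-hr arrays. It reached −1.88 and 3.25 on 2 E2 24-hr arrays, and was −4.73 or lower elsewhere. In the E2 2-hr arrays, 8 of the 13 liver markers were not above background on any array. Against saline, 11 to 12 of the 13 liver markers fell in the E2 2-hr, E2 24-hr, and E3 24-hr groups and 1 fell in the E3 2-hr group, whereas 0 of the tested pancreas, lymphocyte, myeloid, red cell, and fat markers were called in any group. A count of 0 does not show that these cell types were stable, because single arrays of a group stood apart. The mean level of 8 lymphocyte markers ranged from −3.19 to 0.08 over the arrays and was highest on 1 saline (−0.43), 1 E3 2-hr (0.08), and 1 E3 24-hr (−0.67) array, and that of 6 fat markers ranged from −0.84 to 2.40. After E2 at 24 hr, 4 of the 6 fat markers were lower by adjusted p alone (median −1.83), where 34.1% of all probes were. Between E3 and E2 at 2 hr the lymphocyte markers had a median difference of 2.00. Of 5 epithelial markers 3 rose after E2 and 0 after E3 at 24 hr, and of 6 smooth muscle markers 2 rose after E2 and 1 after E3. By adjusted p alone all 5 epithelial markers were higher at 24 hr after E2 (median 1.03) and after E3 (median 0.65). The smooth muscle markers higher by this rule at 24 hr were 5 of 6 after E2 and 6 of 6 after E3. Of all probes, 27.3% (E2) and 15.6% (E3) were. Of 5 skeletal muscle markers 1 fell after E2 at 2 hr and 2 rose after E2 at 24 hr. Of the uterine markers 1 rose and 4 fell at 2 hr after each estrogen and 1 rose and 1 fell after E2 at 24 hr. Of all tested probes, 10.6% rose and 10.7% fell after E2 at 2 hr, and 4.68% and 9.11% after E3 at 2 hr. At 24 hr 6.94% rose and 11.1% fell after E2, and 1.85% and 1.96% after E3. The source of the liver and pancreas transcripts was not tested. The part of these and the other marker transcripts in the results below was not tested beyond leaving out arrays. In bulk tissue, fewer cells of a type and less RNA per cell cannot be told apart.

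**Figure D1:**
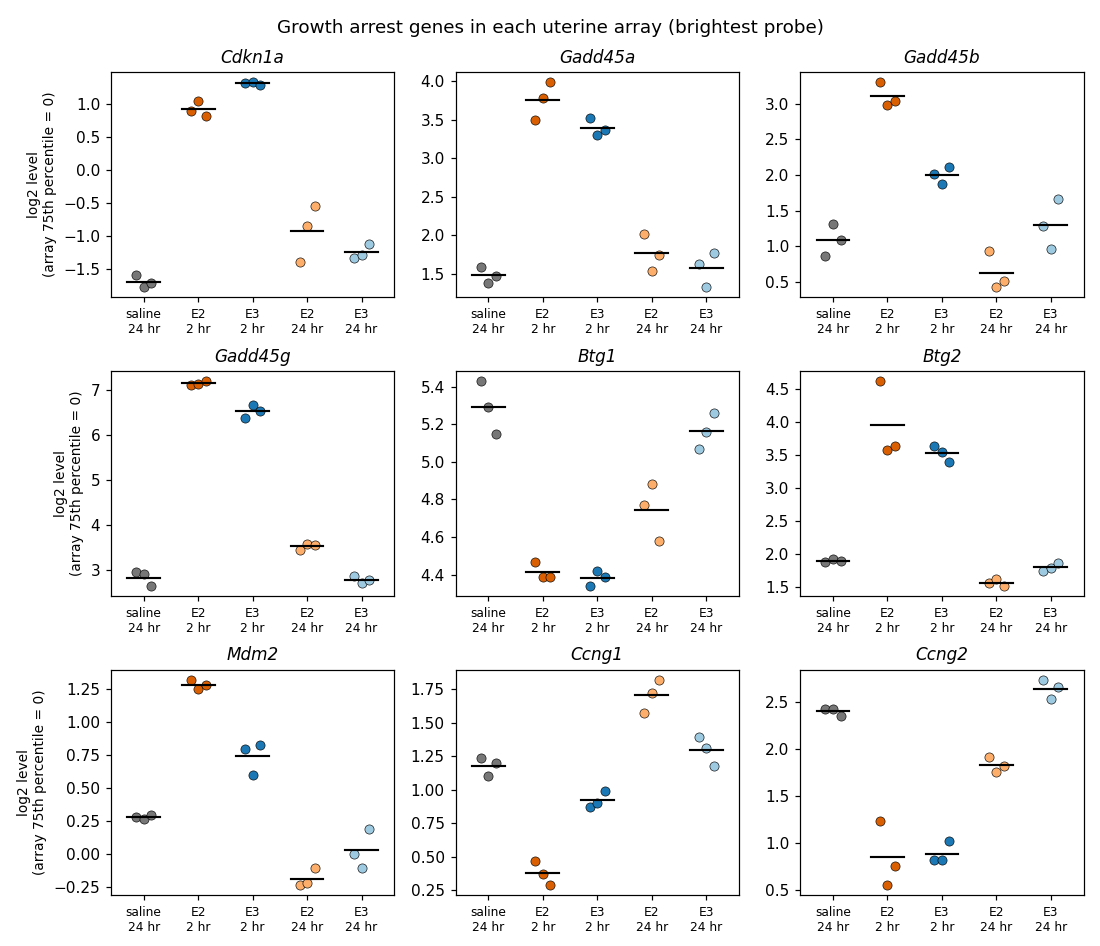
Normalized log2 level (vertical axis, array 75th percentile = 0) of the brightest probe of each growth arrest gene on each of 15 arrays, by group (horizontal axis), with 3 points per group and a line at the mean. *Cdkn1a*, *Gadd45a*, *Gadd45b*, *Gadd45g*, and *Btg2* are highest in the 2-hr groups, *Btg1* and *Ccng2* are lowest there, and *Gadd45g* lies between 6.37 and 7.19 in the 2-hr arrays against 2.64 to 3.57 in all others.

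Several growth arrest genes rose within 2 hr of either estrogen. Against saline, 5 of the 9 genes rose after E2 at 2 hr (*Cdkn1a*, *Gadd45a*, *Gadd45b*, *Gadd45g*, and *Btg2*) and 1 fell (*Ccng2*), where 10.6% of all tested probes rose and 10.7% fell. After E3 at 2 hr, 4 rose (*Cdkn1a*, *Gadd45a*, *Gadd45g*, and *Btg2*) and 1 fell (*Ccng2*), against a background of 4.68% and 9.11%. Both comparisons use the same 3 saline arrays. The median log2 fold change of the 9 genes was 2.01 for E2 and 0.91 for E3, and that of all tested probes was −0.08 and −0.11. At 24 hr no member was called for either estrogen, where 6.94% of all probes rose and 11.1% fell for E2, and 1.85% rose and 1.96% fell for E3.

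By adjusted p alone, with no minimum change, all 9 members differed from saline at 2 hr, 6 higher and 3 lower with each estrogen. The same rule took 29.2% of all probes as higher and 32.8% as lower for E2, and 18.7% and 31.0% for E3. At 24 hr 3 members were higher and 4 lower after E2, against 27.3% and 34.1% of all probes, and 0 were higher and 1 lower after E3, against 15.6% and 18.5%.

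*Cdkn1a*, the p21 gene, was measured by a single probe printed in 10 spots, and the SD between its spots within an array had a median of 0.0351. Its level was −1.59, −1.78, and −1.72 in the saline arrays, 0.90, 1.06, and 0.83 in the E2 2-hr arrays, and 1.33, 1.34, and 1.29 in the E3 2-hr arrays. The 2-hr groups lay far above saline without overlap, and every E3 array was above every E2 array. The rise was 6.17-fold for E2 (log2 2.63, SE 0.164, adjusted p = 8.69e-08) and 8.10-fold for E3 (log2 3.02, SE 0.164, adjusted p = 6.94e-08). *Cdkn1a* was the only one of the 5 genes that rose after E2 whose brightest probe was higher after E3 than after E2, by 0.39 on the log2 scale (95% interval 0.03 to 0.75), a difference with an adjusted p of 0.0717 that was not called.

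At 24 hr, *Cdkn1a* was at −1.39, −0.85, and −0.55 after E2 and at −1.33, −1.29, and −1.12 after E3. All 6 values lay above all 3 saline values, and all lay below every 2-hr value. The difference from saline was 0.77 for E2 (SE 0.164, adjusted p = 0.00147) and 0.45 for E3 (adjusted p = 0.0535), both under the 2-fold minimum. Without the 2 E2 24-hr arrays that held pancreas transcripts, the E2 value was 0.31, which rests on the single array that was left. From 2 hr to 24 hr the gene fell 3.62-fold with E2 and 5.95-fold with E3.

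*Gadd45g* had the largest fold changes of the 9 genes against saline at 2 hr. Its level was 2.94, 2.90, and 2.64 in saline, 7.09, 7.13, and 7.19 after E2 at 2 hr, and 6.37, 6.65, and 6.53 after E3 at 2 hr. The 3 groups did not overlap, with E2 highest. *Gadd45g* rose 19.8-fold after E2 (log2 4.31, SE 0.0974, adjusted p = 1.78e-10) and 12.9-fold after E3 (log2 3.69, SE 0.0974, adjusted p = 5.66e-10). At 24 hr its level was 3.43, 3.57, and 3.56 after E2, above all saline arrays by a mean of 0.69 (adjusted p = 6.51e-05), and 2.85, 2.71, and 2.77 after E3, within the saline range. It fell 12.3-fold between the times with E2 and 13.4-fold with E3.

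*Gadd45a*, the p53-inducible member of the family, had levels of 1.59, 1.39, and 1.48 in saline, 3.50, 3.79, and 3.99 after E2 at 2 hr, and 3.52, 3.31, and 3.37 after E3 at 2 hr. The saline arrays lay below both 2-hr groups, which overlapped each other. The rise was 4.83-fold for E2 (log2 2.27, SE 0.155, adjusted p = 1.66e-07) and 3.76-fold for E3 (log2 1.91, SE 0.155, adjusted p = 1.24e-06). At 24 hr the levels were 2.02, 1.54, and 1.75 after E2 and 1.63, 1.33, and 1.77 after E3, which overlapped saline in both cases. The fall between times was 3.97-fold for E2 and 3.54-fold for E3.

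*Gadd45b* had 2 probes, 523 bases apart. The brighter one, nearest the 3′ end, read 0.86, 1.32, and 1.09 in saline, 3.30, 2.98, and 3.03 after E2 at 2 hr, and 2.01, 1.87, and 2.11 after E3 at 2 hr. All 3 groups stood apart on this probe. By it, *Gadd45b* rose 4.03-fold after E2 (log2 2.01, SE 0.188, adjusted p = 1.96e-06), whereas after E3 it was 1.87-fold higher (log2 0.91, SE 0.188, adjusted p = 0.00157) and was not called. The probe farther from the 3′ end was called for both estrogens, at 2.11-fold for E2 and 2.27-fold for E3, and its E2 and E3 arrays overlapped. At 24 hr the brighter probe read 0.93, 0.43, and 0.52 after E2 and 1.28, 0.97, and 1.67 after E3, and each group overlapped saline.

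*Btg2*, an immediate early gene of the antiproliferative BTG family, had 3 probes. The brightest, nearest the 3′ end, read 1.88, 1.93, and 1.90 in saline, 4.62, 3.58, and 3.64 after E2 at 2 hr, and 3.64, 3.55, and 3.39 after E3 at 2 hr. The first E2 array stood well above the other two, it was also the highest E2 array on the other 2 probes, and both 2-hr groups stayed above saline. *Btg2* rose 4.12-fold after E2 (log2 2.04, SE 0.208, adjusted p = 3.96e-06) and 3.08-fold after E3 (log2 1.62, SE 0.208, adjusted p = 4.27e-05). The other probes were also called for both estrogens, at 2.10- and 2.38-fold for E2 and at 2.59- and 2.64-fold for E3. At 24 hr the brightest probe read 1.57, 1.62, and 1.52 after E2 and 1.74, 1.79, and 1.87 after E3, all below saline by small amounts that were not called (−0.34, adjusted p = 0.18, and −0.10, adjusted p = 0.741).

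*Btg1*, the relative of *Btg2*, went the other way. Its level was 5.43, 5.29, and 5.15 in saline, 4.47, 4.39, and 4.39 after E2 at 2 hr, and 4.34, 4.42, and 4.39 after E3 at 2 hr. Every 2-hr array lay below every saline array, and the E2 and E3 arrays overlapped. The decrease was 1.83-fold for E2 (log2 −0.87, SE 0.0951, adjusted p = 6.92e-06) and 1.87-fold for E3 (log2 −0.90, SE 0.0951, adjusted p = 8.79e-06), under the 2-fold minimum. The other *Btg1* probe, 656 bases upstream, was at −0.76 for E2 and was called for E3 (log2 −1.10, adjusted p = 1.73e-05). At 24 hr *Btg1* was at 4.77, 4.88, and 4.58 after E2, below saline (−0.54, adjusted p = 0.000348), and at 5.07, 5.16, and 5.26 after E3, overlapping saline (−0.13, adjusted p = 0.325).

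*Ccng2*, the quiescence-associated cyclin, was the only member whose brightest probe fell at 2 hr. Its level was 2.42, 2.42, and 2.35 in saline, 1.24, 0.56, and 0.76 after E2, and 0.82, 0.82, and 1.02 after E3. Saline lay above all 6 treated arrays. *Ccng2* fell 2.92-fold after E2 (log2 −1.55, SE 0.141, adjusted p = 1.61e-06) and 2.85-fold after E3 (log2 −1.51, SE 0.141, adjusted p = 3.5e-06). At 24 hr it read 1.91, 1.75, and 1.82 after E2, still below saline (−0.57, adjusted p = 0.00373), and 2.73, 2.53, and 2.65 after E3, above all saline arrays by a mean of 0.24 (adjusted p = 0.211). Between 2 and 24 hr it rose 3.37-fold with E3, whereas the 1.96-fold difference with E2 was not called.

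*Mdm2* and *Ccng1*, targets of p53, were not called against saline on their brightest probes. The brighter *Mdm2* probe read 0.28, 0.27, and 0.30 in saline, 1.32, 1.25, and 1.28 after E2 at 2 hr, and 0.80, 0.60, and 0.83 after E3 at 2 hr. The groups did not overlap, and the E2 difference lay just under the 2-fold minimum (adjusted p = 1.31e-06), whereas the E3 difference was 0.46 (adjusted p = 0.000996). The *Mdm2* probe 3447 bases upstream along the gene, printed in 10 spots, gave 0.46 for E2 and 0.71 for E3. At 24 hr the brighter probe was below saline by 0.47 after E2 (adjusted p = 0.000635) and by 0.25 after E3 (adjusted p = 0.0443). The upstream *Mdm2* probe differed from saline at 24 hr by −0.16 after E2 (adjusted p = 0.164) and by 0.05 after E3 (adjusted p = 0.732).

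The brighter *Ccng1* probe read 1.24, 1.10, and 1.20 in saline, 0.47, 0.37, and 0.29 after E2 at 2 hr, and 0.87, 0.90, and 0.99 after E3 at 2 hr. It was lower than saline by 0.80 after E2 (adjusted p = 7.93e-06) and by 0.26 after E3 (adjusted p = 0.0294), and it was not called. At 24 hr it read 1.57, 1.72, and 1.82 after E2, above saline by 0.53 (adjusted p = 0.000266). The *Ccng1* probe 1986 bases upstream read −1.05, −1.13, and −1.37 in saline, −2.12, −2.06, and −2.36 after E2 at 2 hr, and 0.06, 0.08, and 0.31 after E2 at 24 hr. After E3 at 2 hr it read −1.27, −1.18, and −0.71, overlapping saline (0.13, adjusted p = 0.507), unlike the brighter probe. On the upstream probe the rise over saline after E2 at 24 hr was called (2.53-fold, log2 1.34, SE 0.149, adjusted p = 1.11e-05). After E3 at 24 hr the difference from saline was 0.62 on the upstream probe (adjusted p = 0.00768) and 0.12 on the brighter one (adjusted p = 0.332), neither called.

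**Figure D2:**
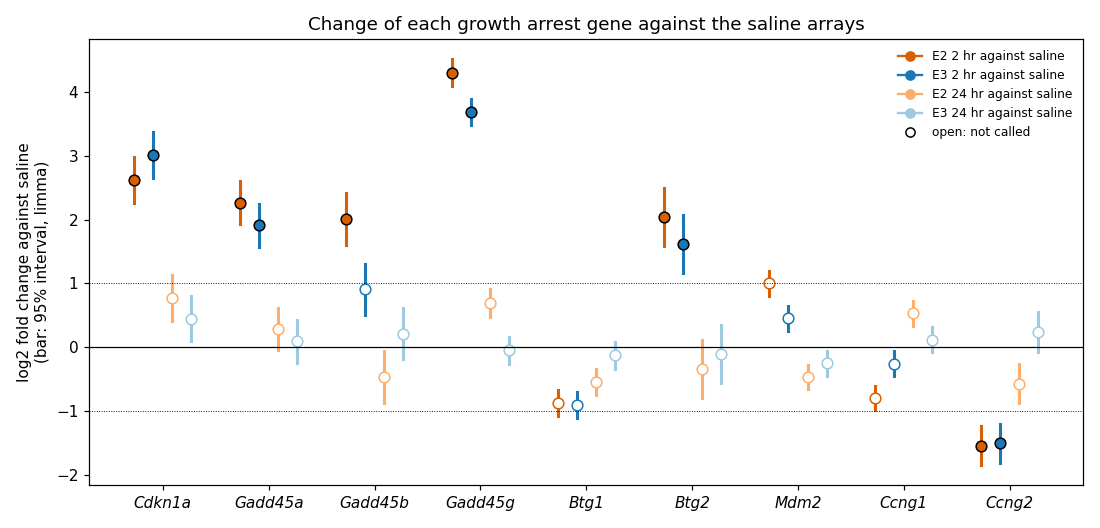
Log2 fold change against saline (vertical axis) of the brightest probe of each growth arrest gene (horizontal axis) for E2 and E3 at 2 and 24 hr, with 95% intervals from limma. Filled points were called, and dotted lines mark 2-fold. All filled points belong to the 2-hr comparisons, and *Gadd45g* is farthest from 0 at 4.31 (E2) and 3.69 (E3).

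The change from 2 hr to 24 hr was a return toward saline for the genes that had risen. With E2, 6 members fell between the times (*Cdkn1a*, *Gadd45a*, *Gadd45b*, *Gadd45g*, *Btg2*, and *Mdm2*) and 1 rose (*Ccng1*), where 17.2% of all probes fell and 13.9% rose. With E3, 4 fell (*Cdkn1a*, *Gadd45a*, *Gadd45g*, and *Btg2*) and 1 rose (*Ccng2*), where 6.47% of all probes fell and 9.65% rose. *Gadd45b* fell 5.57-fold with E2 and was 1.62-fold lower with E3, *Mdm2* fell 2.77-fold with E2 and was 1.64-fold lower with E3, and *Ccng1* rose 2.51-fold with E2. By adjusted p alone 3 members were higher and 6 lower at 24 hr than at 2 hr with each estrogen, where 34.4% and 35.5% (E2) and 33.0% and 22.3% (E3) of all probes were. The 24-hr groups share no arrays with the 2-hr groups, but in the E2 comparison the strain and the scanner differ as well.

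E3 is an estrogen with a further hydroxyl group relative to E2, and both were given at the same dose and times. One pair of compounds was therefore compared at each time, over the 9 genes. At 2 hr, 1 member was called, *Gadd45b*, which was 2.15-fold lower after E3 than after E2 (log2 −1.10, SE 0.188, 95% interval −1.51 to −0.69, adjusted p = 0.000616), where 5.83% of all probes were lower and 1.54% higher. That call belongs to its brighter probe. The other *Gadd45b* probe gave 0.11 (95% interval −0.28 to 0.50). The call was lost with the mean of both probes (−0.50, adjusted p = 0.0375) and without the arrays that held pancreas transcripts (−1.09, adjusted p = 0.029), which leaves 1 E3 2-hr array.

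By adjusted p alone 1 member was higher after E3 at 2 hr and 3 were lower, where 17.0% and 26.3% of all probes were. Among the genes that were not called, *Gadd45g* was lower after E3 by 0.62 (95% interval −0.83 to −0.41, adjusted p = 0.000369). *Gadd45a* was at −0.36 (95% interval −0.70 to −0.02) and *Btg2* at −0.42 (95% interval −0.87 to 0.03). Leaving out single arrays moved the *Btg2* value between −0.61 and −0.08. For *Btg1* the difference was −0.03 (95% interval −0.24 to 0.18) and for *Ccng2* 0.03 (95% interval −0.27 to 0.34), intervals that leave out a 2-fold difference in either direction. The other *Btg1* probe gave −0.33 (95% interval −0.61 to −0.06, adjusted p = 0.0479). *Ccng1* was higher after E3 by 0.54 on the brighter probe and by 1.12 on the upstream one (95% interval 0.80 to 1.45, adjusted p = 0.00011), the latter being called.

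At 24 hr no member was called between E3 and E2, where 2.77% of all probes were called higher and 2.07% lower. By adjusted p alone 3 genes were higher after E3 and 2 were lower, where 20.8% and 15.7% of all probes were. *Gadd45b* (0.68, adjusted p = 0.0136), *Btg1* (0.42, adjusted p = 0.00491), and *Ccng2* (0.81, adjusted p = 0.000929) were the higher ones. *Gadd45g* (−0.75, 95% interval −0.96 to −0.53, adjusted p = 0.000149) and *Ccng1* (−0.41, adjusted p = 0.00365) were lower.

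**Figure D3:**
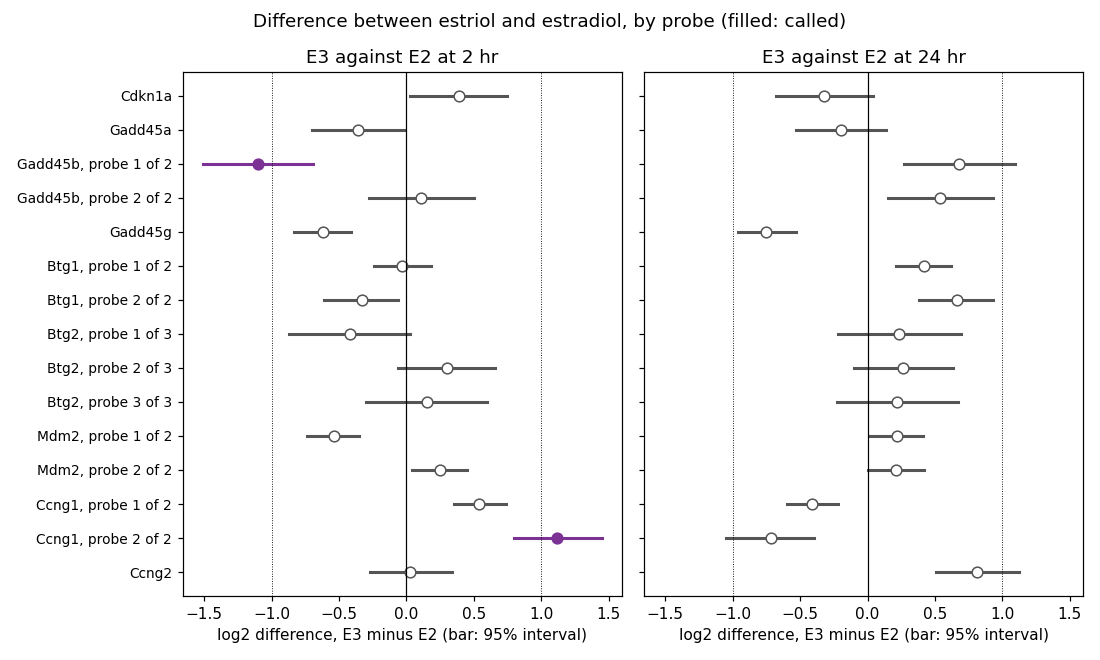
Log2 difference of E3 minus E2 (horizontal axis, with 95% intervals) for each of the 15 probes of the growth arrest genes (vertical axis, numbered from the 3′ end) at 2 hr (left) and 24 hr (right). Filled points were called. At 2 hr probes of *Gadd45b*, *Btg2*, and *Mdm2* lie on different sides of 0, whereas at 24 hr all probes of a gene lie on the same side.

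The sign of the E3 minus E2 estimate at 2 hr differed between probes of *Gadd45b*, *Btg2*, and *Mdm2*. Only for *Mdm2* did the 95% intervals on both sides leave out 0. The probes far from the 3′ end are shown for *Btg2* (chr1:133967389-133967448), *Mdm2* (chr10:117204040-117204099), and *Ccng1* (chr11:40693768-40693827), with coordinates of build mm7 on the minus strand, because these probes gave other values than the 3′ probes of the same transcripts. Each can be read in a frame without a stop codon, but whether they lie in the coding part of the mRNA was not tested.
Btg2 probe: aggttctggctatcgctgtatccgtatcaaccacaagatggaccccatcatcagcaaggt
Mdm2 probe: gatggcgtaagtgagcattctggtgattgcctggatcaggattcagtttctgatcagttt
Ccng1 probe: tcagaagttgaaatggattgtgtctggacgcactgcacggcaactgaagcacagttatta
For *Btg2* the 3′ probe gave −0.42 (95% interval −0.87 to 0.03) and the probe shown 0.15 (95% interval −0.30 to 0.60). Both *Ccng1* probes were higher after E3, by 0.54 on the 3′ probe and by 1.12 on the probe shown. For *Mdm2* the 3′ probe gave −0.54 (95% interval −0.74 to −0.35) and the probe shown 0.25 (95% interval 0.04 to 0.45). Probe position moved with the E2 2-hr arrays across the whole array as well. Among 4626 genes with at least 2 probes, the 3′ probe minus the 5′ probe had a median of 1.70 to 1.78 per E2 2-hr array and of 1.49 to 1.66 on the other arrays. The 3′ minus 5′ difference in the E3 against E2 change at 2 hr had a median of −0.17 over these genes, and it was −1.21 for *Gadd45b*, −0.79 for *Mdm2*, −0.58 for *Ccng1*, −0.57 for *Btg2*, and 0.30 for *Btg1*. The part of RNA quality, strain, and scanner in these differences was not tested.

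Lists of related genes are given beside the members. The share of all probes that rose and fell was 10.6% and 10.7% for E2 and 4.68% and 9.11% for E3 at 2 hr, and 6.94% and 11.1% for E2 and 1.85% and 1.96% for E3 at 24 hr, and each list's counts are to be read against these shares. Of 34 proliferation genes, 0 rose and 1 fell (*Bub1b*, a spindle checkpoint kinase, log2 −1.19) after E2 at 2 hr, with a median log2 fold change of −0.41, and 32 rose after E2 at 24 hr, with a median of 2.41. The largest rises were those of *Ube2c* (3.53), a ubiquitin-conjugating enzyme of mitosis, and *Cdc6* (3.09), a replication licensing factor. After E3, 0 were called at 2 hr (median 0.63) and 18 rose at 24 hr (median 1.74), led by *Ube2c* (3.22) and the mitotic cyclin *Ccnb2* (3.00). By adjusted p alone 1 was higher and 9 lower after E2 at 2 hr, where 29.2% and 32.8% of all probes were, and 10 were higher and 1 lower after E3 at 2 hr, where 18.7% and 31.0% were.

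Of 13 immediate early genes, 10 rose at 2 hr after E2 (median 2.37) and 10 after E3 (median 2.36), led by *Fos* (5.74 and 5.29) and the orphan receptor gene *Nr4a1* (3.92 and 3.57). At 24 hr none of them rose, and *Jun* fell after E2 (−1.17).

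**Figure D4:**
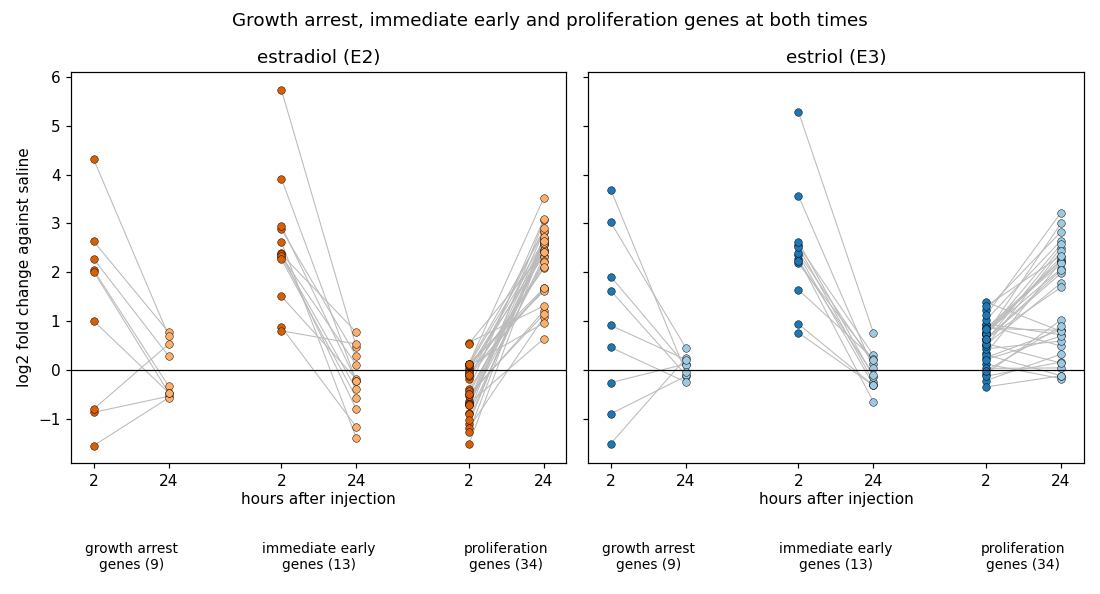
Log2 fold change against saline (vertical axis) at 2 and 24 hr (horizontal axis) for 9 growth arrest, 13 immediate early, and 34 proliferation genes after E2 (left) and E3 (right), with a line joining the values of 1 gene. The medians are 2.01, 2.37, and −0.41 at 2 hr and −0.34, −0.23, and 2.41 at 24 hr for E2.

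Of 21 further genes of the p53 axis, 5 rose and 3 fell after E2 at 2 hr (median −0.02), and 5 rose and 3 fell after E3 (median −0.01). Of all probes 10.6% rose and 10.7% fell after E2, and 4.68% and 9.11% after E3, so the falls after E2 are near the background. The polo-like kinases *Plk2* (4.30 and 3.30) and *Plk3* (3.15 and 2.82), which are also serum-inducible, rose most. The stress-responsive sestrin *Sesn1* fell most (−2.43 and −2.02), followed by the proapoptotic *Bbc3* after E2 (−1.12) and the arrest gene *Rprm* after E3 (−1.02). At 24 hr, 3 rose and 2 fell after E2, with *Perp* (1.67), a desmosome protein, and *Bax* (1.29), a proapoptotic protein, rising most and *Rrm2b* (−1.22) and *Mdm4* (−1.03) falling, and 1 rose after E3 (*Perp*, 1.26).

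Of 6 other CDK inhibitors tested, 0 rose and 1 fell after E2 at 2 hr (*Cdkn2c*, −1.30), and 0 rose and 1 fell after E3 (*Cdkn1b*, the p27 gene, −1.07). A count of 0 rises in a list of this size is near the background. By adjusted p alone 2 of the 6 were higher and 2 lower after E2, and 1 was higher and 4 were lower after E3, where 29.2% and 32.8% (E2) and 18.7% and 31.0% (E3) of all probes were. At 24 hr *Cdkn2a* (2.35) and *Cdkn2b* (1.01) rose and *Cdkn1c*, the p57 gene, fell (−1.55) after E2, and *Cdkn2a* rose after E3 (2.13). Of 7 tested genes of the BTG/TOB family and the deadenylase, 2 rose and 0 fell at 2 hr after either estrogen, *Tob1* (3.78 after E2 and 2.37 after E3) and *Btg3* (1.05 and 1.18), and none was called at 24 hr.

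Of 8 genes for partners of Gadd45 proteins, 1 rose after E2 at 2 hr (*Tdg*, a DNA glycosylase, 1.82) and 2 fell (*Map2k6*, −1.58, and *Map3k4*, −1.26), and 0 were called after E3 at 2 hr or at 24 hr. The single rise is near the share of all probes that rose. Of 10 FoxO-related quiescence genes, *Bcl6* rose (1.05) and *Sesn3* fell (−1.27) after E2 at 2 hr, counts near the shares of all probes, *Txnip* (−1.81) and *Sesn3* (−1.41) fell after E3 at 2 hr, and *Txnip* fell after E2 at 24 hr (−1.60). At 24 hr the median of this list was −0.68 after E2, with 10 of 10 lower by adjusted p alone where 34.1% of all probes were, and −0.13 after E3, with 0 lower and 1 higher where 18.5% and 15.6% were. Of 6 G1 cyclins and their kinases, 0 were called after E2 at 2 hr and *Cdk6* fell after E3 at 2 hr (−1.25). At 24 hr *Cdk4* rose after E2 (1.07), and *Ccnd2* fell after E3 (adjusted p = 0.000375).

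Genes that respond to glucocorticoids or handling were included because 2 hr is a time without a saline group. Of 8 tested, 3 rose, 1 fell, and 4 were not called at 2 hr after each estrogen. *Errfi1* (3.81) and *Pdk4* (2.46) rose most after E2, *Errfi1* (3.26) and *Sgk1* (2.43) after E3, and *Tsc22d3*, a classic glucocorticoid target, fell after both (−1.27 and −1.32). *Errfi1* is also known as an estrogen-responsive gene of the uterus. At 24 hr 0 rose and 3 fell after E2, with *Pdk4* (−1.40) and *Mt2* (−1.26) falling most, and 1 fell after E3 (*Fkbp5*, −1.40). The part of the injection in the 2-hr changes of the growth arrest genes was not tested.

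Correlations over the 15 arrays are given as a description, over arrays that share groups. The 5 rising genes and *Ccng2* were picked by their changes on these same arrays, so a large r among them follows in part from that choice. Among the 5 genes that rose after E2 at 2 hr, Pearson's r ranged from 0.744 between *Cdkn1a* and *Gadd45b* to 0.983 between *Gadd45a* and *Gadd45g*. It was 0.962 between *Cdkn1a* and *Gadd45g*, 0.846 between *Gadd45b* and *Gadd45g*, and −0.933 between *Cdkn1a* and *Ccng2*. Among 29694 probes well above background on all arrays, the symbols most like *Cdkn1a* were *Pnp* (r = 0.987), *Inhbb* (0.985), and *8430417A20Rik* (0.984). Those most like *Gadd45g* were *Inhbb*, *Greb1*, and *P2ry2* (0.995 each), those most like *Btg2* were *Nr4a1* (0.992), *Pvr* (0.989), and *Dusp1* (0.986), and those most like *Gadd45b* were *Procr* (0.988), *Slc43a2* (0.974), and *Tmcc1* (0.973). *Gadd45a* was most like *Smad5* (0.991), a transcript named by the Ensembl identifier ENSMUST00000016768 (0.990), and *Riok2* (0.989). *Mdm2* was most like *Sbds* (0.989), *Abt1* (0.988), and *Eif2s2* (0.986), and *Ccng1* was most like *Pold1* (0.991), *Vps25* (0.990), and *C030006K11Rik* (0.986). *Ccng2* was most like *Slc31a2* (0.995), *Sesn3* (0.988), and *Abca6* (0.988), and *Btg1* was most like *Il28ra* (0.973), *Pygl* (0.969), and a transcript without a symbol (0.982).

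One slide held both groups of a comparison, with 1 saline array and all 3 E3 2-hr arrays. Within that slide, the E3 2-hr change was 3.04 for *Cdkn1a*, 3.88 for *Gadd45g*, 1.92 for *Gadd45a*, 1.63 for *Btg2*, and −1.46 for *Ccng2*. The single saline array has no spread of its own and was assumed to vary like the other groups. Without the 3 E2 2-hr arrays in the fit, 4 members rose and 1 fell after E3 at 2 hr. Without the 4 arrays that held pancreas transcripts, an alternative chosen after seeing the data that leaves 1 E3 2-hr array assumed to vary like the other groups, 3 rose and 1 fell after E3 at 2 hr, and *Btg2* (1.74) was no longer called.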

How the data were processed

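Single-color Agilent whole mouse genome arrays were made by the authors from Cy3-labeled uterine cRNA. Signals were extracted with Agilent Feature Extraction 9.5.3.1, per the file headers. The deposited values are processed intensities on a linear scale, background subtracted and trend corrected within each array, with flags for outliers and for background. The series-wide value table repeats these intensities (largest relative difference 0) without scaling between arrays. Probe coordinates follow build mm7, per the file headers.

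The analysis used R 4.3.3, limma 3.58.1, and the data.table package (version 1.17.8), and python 3.11.15 with matplotlib 3.10.9. Of 45018 spots per array, 1639 control spots were dropped, 1893 outlier-flagged spots over the 15 arrays were set aside (744 values missing afterward), and spots of 1 probe were averaged. Each intensity was divided by the 75th percentile of its array and put on a log2 scale, which treats the bulk of probes as stable. A probe entered the tests if 2 or more arrays of any 1 group measured it well above background (34760, 84.4%). limma's linear model with empirical Bayes moderation was fitted to 5 group means over all 15 arrays (10 residual and 2.06 prior degrees of freedom). Changes with p below 0.001 and at least 2-fold were called, and Benjamini-Hochberg values were computed over all tested probes. Precision is limited by how many arrays there were. The procedure was tested on simulated data with known changes. The simulated noise was independent between arrays and held no strain, scanner, or slide effect, so that test does not bear on those limits.

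The named genes were the 9 members, the 2 largest rises and 2 largest falls of each list among called genes, and the 3 genes most correlated with each member. Lists were p53 axis, CDK inhibitors, BTG/TOB, Gadd45 partners, FoxO-related, immediate early, proliferation, G1 cyclins, glucocorticoid and handling genes, and tissue markers. The members and lists were chosen with earlier results of these data known. Alternatives were other background correction, scaling, filters, call rules, probe choice, slide and replicate blocks, and leaving out arrays.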

Additional observations from a re-analysis of the deposited data

Results flagged for a closer look

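For single probes of *Gadd45b* and *Ccng1*, the E3 and E2 responses differed by a test of the difference itself. On the brighter *Gadd45b* probe, E3 minus E2 was −1.10 at 2 hr (called) and 0.68 at 24 hr, and the change of that difference between the times, a comparison added after the values were seen, was 1.79 (95% interval 1.21 to 2.36, adjusted p = 0.000232), where 15.5% of all probes were called. The other *Gadd45b* probe gave 0.11 at 2 hr (adjusted p = 0.655) and 0.43 for the change (95% interval −0.13 to 0.99, adjusted p = 0.188), and with the mean of both probes the 2-hr difference was −0.50 and was not called. On the upstream *Ccng1* probe, E3 minus E2 was 1.12 at 2 hr (called) and −0.72 at 24 hr, and its change was −1.85 (95% interval −2.30 to −1.39, adjusted p = 4.04e-05), and the brighter *Ccng1* probe gave −0.95 (adjusted p = 0.000104), under the 2-fold minimum. The 2-hr differences and the changes between times rest on the E2 2-hr arrays, whose strain, slides, and scanner cannot be told apart from treatment. The 3′ probe minus the 5′ probe in the E3 minus E2 difference at 2 hr was −1.21 for *Gadd45b* and −0.58 for *Ccng1*, against a median of −0.17 over 4626 genes, and the part of probe position was not tested.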

How the results depend on the processing

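Counts of called members kept within 1.5 times of the reported ones under normexp background correction, quantile normalization, the percentile over probes above background on all arrays, no scaling, no or a stricter filter on dim probes, adjusted p with a 2-fold minimum, and slide blocks. Slide as a fixed block was fitted only for E3 at 2 hr against saline. In the other comparisons no slide held both groups, so a slide block could not remove a slide effect there. With adjusted p and no minimum change, the counts were 9 for E3 at 2 hr, 7 for E2 at 24 hr, and 1 for E3 at 24 hr against saline, 4 (2 hr) and 5 (24 hr) for E3 against E2, and 9 for E3 at 24 hr against 2 hr. With the mean of a gene's probes the count for E3 against E2 at 2 hr was 0, with *Gadd45b* at −0.50 and *Btg2* turning to 0.01. It was also 0 without the arrays with pancreas transcripts, an alternative chosen after seeing the data, which gave −1.09 for *Gadd45b*, −0.03 for *Ccng2* at 2 hr, and 0.14 for *Cdkn1a* at 24 hr. Small E3 minus E2 differences at 2 hr changed sign: *Btg1* with normexp (0.11) and quantile normalization (0.06), and *Ccng2* without scaling (−0.06). Leaving out single arrays turned the sign of *Ccng2* (E3 against E2 at 2 hr, −0.11 to 0.23) and *Gadd45a* (E3 at 24 hr against saline, −0.01 to 0.21), and brought *Gadd45g* (E3 at 24 hr against saline, −0.14 to 0) and *Btg1* (E3 against E2 at 2 hr, −0.05 to 0) to 0 after rounding. The E2 2-hr change of *Mdm2* was called with normexp (1.06), without scaling (1.09), and without single arrays (up to 1.02), and that of *Btg1* with normexp (−1.01) and quantile normalization (−1.04). *Gadd45b* was called for E3 at 2 hr with the mean of its probes (1.04) and without saline replicate 2 (1.02), and *Ccng2* between times with E2 with normexp (1.04) and without E2 2-hr replicate 1 (1.17) or E2 24-hr replicate 2 (1.01).

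Leaving out each array in turn gave 6 to 7 called members for E2 and 5 to 6 for E3 at 2 hr, 0 for both at 24 hr, 1 and 0 for E3 against E2, and 7 to 8 and 5 for the later against the earlier time with E2 and E3. With the replicate number as a block the counts were 6, 5, 0, and 0 against saline, 1 and 0 for E3 against E2, and 7 and 5 between times, and the block changed no count. Arrays with the same number shared only a number: their deviations correlated at −0.462 to 0.547 (median 0.0379), and 9 of 30 pairs exceeded 0.1. Normexp moved the median of all probes by 0.33 to 0.38 for comparisons with E3 at 24 hr, and changes there are relative to it. Over all probes, the share of calls that were higher moved by over 10 percentage points for E3 at 24 hr against saline, from 48.5% to 89.3% (normexp), 58.6% (quantile), 38.4% (no scaling), and 60.4% (without E3 24-hr replicate 3), for E2 at 24 hr, from 38.4% to 54.4% (normexp), and for E3 against E2 at 2 hr, from 20.9% to 31.0% (adjusted p with a 2-fold minimum) and 39.2% (adjusted p with no minimum). No cause of these shifts was tested.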
